A study of Mus musculus with 4 samples.

Results

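Interferon-stimulated genes were followed in sorted stroma and endothelium of mouse femur bone marrow, as a set of 46 genes listed by name, of which 44 were found among the 32285 genes of the count tables. Mx1 and Mx2, which encode antiviral GTPases, were not analysed here. The list holds transcription factors, RNA sensors, enzymes and effectors, and its rule goes by gene name. All mice were C57BL/6 of the genotype Rag2-/-gammac-/-, which lack T, B and NK lymphocytes. The Graft_D19 and Graft_D40 libraries came from femurs injected with DOHH2 cells, a line of human B cells from a follicular lymphoma, and harvested on day 19 and day 40. The Sham_D40 library came from femurs injected with PBS, and the Ctrl library from femurs left at steady state. There were 4 libraries, 1 per group, so no difference was tested, and animal, day and library cannot be told apart from the group. Whether a library pooled several animals, and the age of the animals, are not given in the sources used here.

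Interferons are secreted cytokines. Type I interferons signal through Ifnar1 and Ifnar2 to a complex with Stat2 and Irf9 that binds the interferon-stimulated response element, whereas interferon gamma acts mainly at the gamma-activated site. The genes switched on in this way restrict viruses, sense foreign RNA and widen antigen presentation, and vascular and stromal cells can respond to interferon as leukocytes do.

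The cells were sorted as Cd45- and Ter119-negative, either Cd31-negative, Cd51-positive and Cd200-positive for stroma, or Cd31- and Sca1-positive for endothelium. Sca1 is the product of Ly6a, a gene that interferon can induce, so the endothelial gate selected on it in every library. After filtering, 4811 cells were kept in Graft_D19, 4864 in Graft_D40, 4526 in Sham_D40 and 4071 in Ctrl, with median depths of 8619, 9792, 9019.5 and 3553 unique molecular identifiers (UMIs) per cell in that order. Ctrl was thus the shallowest library. Any pair of libraries shared 11 to 15 cell barcodes. Scores over lists of marker genes placed 1314, 1267, 1246 and 1447 cells in endothelium and 3284, 3137, 3170 and 2463 in mesenchymal stroma, in the order of the depths. The median score of the endothelial markers was 2.11 in endothelium and 0 in mesenchymal stroma. Stroma was divided by marker scores into LepR, osteolineage, chondrocyte and fibroblast cells, and endothelium into sinusoidal, arterial and other endothelial cells. These classes are ranges of a score, and between 17 and 90 of the endothelial cells of a library lay near the limit of that class. Of the sinusoidal cells, 118 of 1055 in Graft_D19, 149 of 602 in Graft_D40, 39 of 832 in Sham_D40 and 33 of 1075 in Ctrl did. Sinusoidal cells near the limit were thus a larger part of the class in the grafted libraries. Levels are CPM, the UMIs of a gene in a class per 1000000 UMIs of that class in that library. They are not divided by gene length and carry counting error only.

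Promoters were read from RefSeq for the 34 members found in its table on GRCm38.p6, to show which carry the binding cores of the factors named above. The response element core GAAANNGAAA, searched on both strands from 250 bases before to 50 bases after the start, was present in 18 of the 34 members (52.9%), against 1079 of 27025 genes in the table (3.99%). The gamma-activated core TTCNNNGAA was present in 10 members (29.4%), against 2582 of all genes (9.55%). In Bst2 and Ifitm3 matches of the 2 cores overlapped. Among the role groups, the response element core was found in 4 of 4 sensors and 5 of 6 GTPases, and in 0 of the 5 remaining genes grouped as others. These are matches of letters in a window and not measured binding. The 200 bases before the start are printed for 5 members whose levels are described below, 5′ to 3′ on the strand of the gene, with the cores in capitals. Isg15 lies on the minus strand at chr4:156200819-156201018 and holds 3 response element cores that overlap, at 78, 72 and 66 bases before the start. Rsad2 lies on the minus strand at chr12:26456453-26456652 with 1 core at 120 bases. Ifit1 lies on the plus strand at chr19:34640689-34640888 with cores at 104 and 85 bases. Bst2 lies on the minus strand at chr8:71537473-71537672, with response element cores at 130 and 124 bases and a gamma-activated core at 136 bases. Irf1 lies on the plus strand at chr11:53769814-53770013 and holds a gamma-activated core at 90 bases and no response element core.
Isg15: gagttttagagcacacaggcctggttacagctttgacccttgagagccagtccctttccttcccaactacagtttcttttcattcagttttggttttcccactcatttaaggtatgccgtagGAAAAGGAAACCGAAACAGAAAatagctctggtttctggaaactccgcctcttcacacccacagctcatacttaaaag
Rsad2: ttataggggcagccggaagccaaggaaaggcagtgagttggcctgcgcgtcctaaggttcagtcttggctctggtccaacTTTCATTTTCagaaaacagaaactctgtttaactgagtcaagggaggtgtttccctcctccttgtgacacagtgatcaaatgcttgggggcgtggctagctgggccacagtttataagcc
Ifit1: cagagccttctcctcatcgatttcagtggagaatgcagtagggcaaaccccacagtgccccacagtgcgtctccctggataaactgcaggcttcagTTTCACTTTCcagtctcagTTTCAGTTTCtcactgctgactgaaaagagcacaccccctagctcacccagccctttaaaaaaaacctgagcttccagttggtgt
Bst2: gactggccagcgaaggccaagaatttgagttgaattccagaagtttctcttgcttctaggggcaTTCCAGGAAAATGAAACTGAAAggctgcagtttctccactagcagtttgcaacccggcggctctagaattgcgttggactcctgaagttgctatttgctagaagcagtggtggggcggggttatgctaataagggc
Irf1: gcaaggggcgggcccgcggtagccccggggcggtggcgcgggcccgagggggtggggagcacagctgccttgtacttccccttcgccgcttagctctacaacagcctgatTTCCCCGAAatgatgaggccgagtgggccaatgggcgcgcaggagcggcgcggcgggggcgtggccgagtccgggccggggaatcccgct

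The 44 members together made up under 1% of the UMIs of each of these 7 classes, and their summed level was higher in endothelium and LepR stroma than in cartilage. In endothelium the sum was 5352 CPM in Graft_D19, 7703 in Graft_D40, 4599.9 in Sham_D40 and 5274 in Ctrl. In LepR cells it was 4833 CPM in Graft_D19, 5931 in Graft_D40, 4751 in Sham_D40 and 6353 in Ctrl. In chondrocyte cells it was 309 CPM in Graft_D19, 337 in Graft_D40, 391 in Sham_D40 and 491 in Ctrl, the lowest of the 7 classes in each library. A few genes carried much of these sums. Ifitm3, Bst2 and Rsad2 held 46.1% of the member UMIs in Graft_D40 endothelium, and Ifitm3, Bst2 and Iigp1 held 52.0% in Graft_D19, 50.4% in Sham_D40 and 64.6% in Ctrl. Ifitm3, which encodes a membrane protein that blocks virus entry, stood at 1695 CPM in Graft_D19, 2324 in Graft_D40, 1481 in Sham_D40 and 2385 in Ctrl in endothelium and at 2093 CPM in Graft_D19, 2415 in Graft_D40, 2076 in Sham_D40 and 3891 in Ctrl in LepR cells. Ifitm3 was thus the most abundant member in both classes, and its order of libraries differed from that of most members described below.

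**Figure D1:**
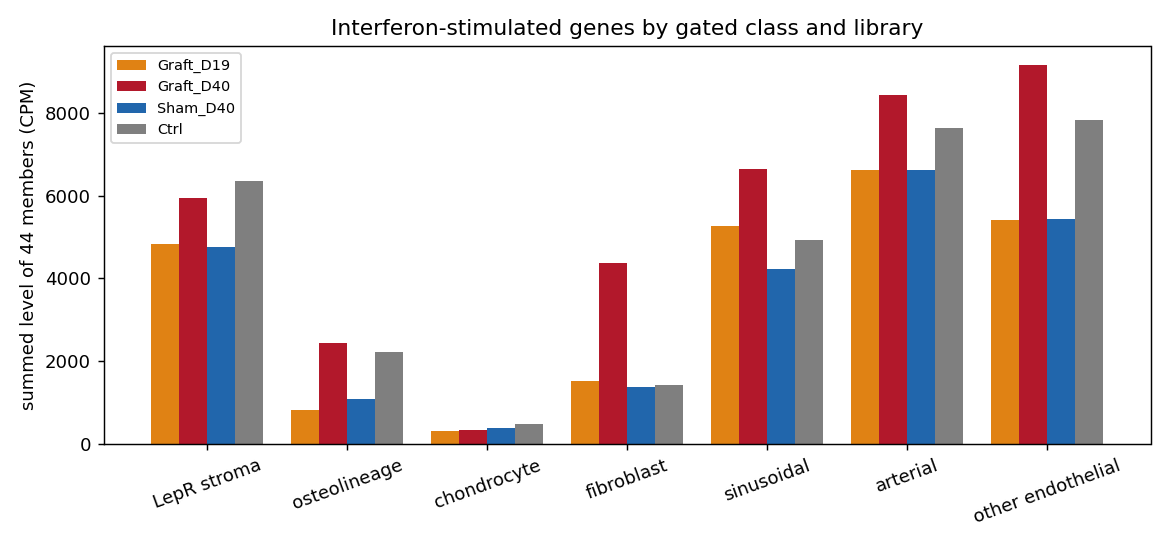
Summed level of the 44 interferon-stimulated genes (bars, CPM, axis from 0) in 7 gated classes, with 1 bar per library. Graft_D40 is the highest bar in sinusoidal, arterial, other endothelial, osteolineage and fibroblast cells, at 4370.4 CPM in fibroblasts against 1375 in Sham_D40, whereas Ctrl is the highest in LepR cells and chondrocytes.

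In endothelium, Graft_D40 held more of most interferon-stimulated genes than Sham_D40. A gene is called higher or lower here when its CPM plus 1 differed by 1.5-fold or more and the 95% counting interval of the ratio lay off 1. By this rule 28 of 44 members were higher and 0 were lower, against 6.57% of all genes higher and 6.8% lower. The median log2 ratio was 0.84 over the members and 0.02 over all genes. The members called higher included the OAS and IFIT families in full, Rsad2, Isg15, Irf7, Zbp1, Slfn2 and Ifi27l2a. Without the 10 cells of each library that held the most member UMIs, 25 members were higher. Graft_D40 had the highest of the 4 levels for 40 of 44 members, as it did for 30.82% of all genes.

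Among the transcription factors of the response, 1 of 4 was higher in Graft_D40 endothelium. Irf7, the factor that amplifies type I interferon production, was at 48.8 CPM in Graft_D19, 131 in Graft_D40, 37.1 in Sham_D40 and 45.7 in Ctrl, a ratio of Graft_D40 over Sham_D40 of 3.54 (interval 3.15 to 3.99). Irf1, a factor induced strongly by interferon gamma, had 85.1 CPM in Graft_D19, 89.1 in Graft_D40, 90.6 in Sham_D40 and 94.6 in Ctrl. Irf7 thus set Graft_D40 apart, and Irf1 stood at nearly the same level in all 4 libraries. Stat2 and Irf9, subunits of the type I complex, had ratios of 1.21 (interval 1.08 to 1.36) and 1.19 (interval 1.08 to 1.31) and were not called.

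The sensors of foreign nucleic acid split evenly, with 3 of 6 higher. Ddx58, which encodes the RNA sensor RIG-I, was at 95.2 CPM in Graft_D19, 91.8 in Graft_D40, 84.8 in Sham_D40 and 64.1 in Ctrl. Zbp1, a sensor of Z-form nucleic acid that can start necroptosis, was at 13.1 CPM in Graft_D19, 30.6 in Graft_D40, 7.36 in Sham_D40 and 7.20 in Ctrl, a Graft_D40 over Sham_D40 ratio of 4.16 (interval 3.21 to 5.46). Dhx58, the sensor LGP2, and Ddx60 were higher too: Dhx58 had 23.5 CPM in Graft_D40, against 9.85 in Sham_D40, and Ddx60 had 46.9 CPM in Graft_D40, against 24.1 in Sham_D40. Ifih1, the sensor MDA5, and Eif2ak2, the kinase PKR that halts translation, were not called, with ratios of 1.26 (interval 1.13 to 1.42) and 1.44 (interval 1.31 to 1.59). The most abundant sensor, Ddx58, thus stood at similar levels in the day 40 libraries, and the scarce Zbp1 had the largest ratio of the 6.

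All 4 members of the OAS family, named for enzymes that make the second messenger that activates RNase L, were higher in Graft_D40, though 3 of them were scarce. Oasl2 was at 63.8 CPM in Graft_D19, 111 in Graft_D40, 44.4 in Sham_D40 and 30.5 in Ctrl. Oasl1 was at 9.41 CPM in Graft_D19, 20.6 in Graft_D40, 4.15 in Sham_D40 and 3.68 in Ctrl, a Graft_D40 over Sham_D40 ratio of 4.97 (interval 3.54 to 7.14). Oas1a was at 6.28 CPM in Graft_D19, 8.41 in Graft_D40, 2.28 in Sham_D40 and 6.03 in Ctrl. Oas2 was at 1.40 CPM in Graft_D19, 10.3 in Graft_D40, 4.25 in Sham_D40 and 4.52 in Ctrl, so that Graft_D19 was the lowest library for this gene.

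The IFIT family, which binds viral RNA and restrains its translation, was also higher in full. Ifit3 was at 77.3 CPM in Graft_D19, 151 in Graft_D40, 55.3 in Sham_D40 and 51.7 in Ctrl, and Ifit1, which recognises RNA without a methylated cap, at 34.7 CPM in Graft_D19, 102 in Graft_D40, 31.2 in Sham_D40 and 20.1 in Ctrl. The Graft_D40 over Sham_D40 ratios were 3.27 (interval 2.87 to 3.72) for Ifit1 and 2.96 (interval 2.52 to 3.50) for Ifit2. Graft_D40 held the highest level of each and Ctrl the lowest of Ifit1, Ifit2 and Ifit3. Ifit3 and Ifit3b are near-identical copies, so the division of reads between them is uncertain, as it may be for Oas1a and its close relatives.

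Of the genes around the ubiquitin-like protein ISG15, 1 of 6 was higher. Isg15 itself was at 149 CPM in Graft_D19, 270.3 in Graft_D40, 85.4 in Sham_D40 and 105 in Ctrl, a Graft_D40 over Sham_D40 ratio of 3.16 (interval 2.93 to 3.42). Usp18, the protease that removes ISG15 and dampens the receptor, was at 30.6 CPM in Graft_D19, 45.4 in Graft_D40, 31.5 in Sham_D40 and 23.4 in Ctrl and was not called. Parp14, an ADP-ribosyltransferase and the most abundant of this group, was at 176 CPM in Graft_D19, 205 in Graft_D40, 167 in Sham_D40 and 107 in Ctrl, and Trim25, a ubiquitin ligase of the RIG-I pathway, at 104 CPM in Graft_D19, 178 in Graft_D40, 177 in Sham_D40 and 82.9 in Ctrl. Trim25 split the libraries by another line: both day 40 libraries were higher than Graft_D19 and Ctrl.

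Of the GTPases that act on the vacuoles of intracellular pathogens, 4 of 8 were higher. These were the guanylate-binding proteins Gbp2, Gbp3 and Gbp4 and the immunity-related GTPase Igtp, with Gbp4 at 52.7 CPM in Graft_D19, 102 in Graft_D40, 49.5 in Sham_D40 and 36.8 in Ctrl. Gbp2 was at 51.4 CPM in Graft_D19, 87.7 in Graft_D40, 44.3 in Sham_D40 and 37.3 in Ctrl, with a Graft_D40 over Sham_D40 ratio of 1.98 (interval 1.77 to 2.22). Iigp1, the most abundant of them, was level across the libraries, at 257 CPM in Graft_D19, 271 in Graft_D40, 249 in Sham_D40 and 235 in Ctrl. Ifi47 was at 95.1 CPM in Graft_D19, 94.6 in Graft_D40, 106 in Sham_D40 and 156 in Ctrl, so that Ctrl held the highest level of this gene.

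All 5 membrane and nucleotide effectors were higher in Graft_D40. Rsad2 encodes viperin, which makes a nucleotide that terminates viral RNA chains, and was at 178 CPM in Graft_D19, 322 in Graft_D40, 85.4 in Sham_D40 and 62.3 in Ctrl, a Graft_D40 over Sham_D40 ratio of 3.77 (interval 3.49 to 4.07). Cmpk2, a mitochondrial nucleotide kinase, was at 41.8 CPM in Graft_D19, 53.9 in Graft_D40, 33.6 in Sham_D40 and 27.1 in Ctrl. Bst2, which encodes the virus tether tetherin, was at 830.0 CPM in Graft_D19, 905 in Graft_D40, 589 in Sham_D40 and 788 in Ctrl. Bst2 and Ifitm3 only just passed, with ratios of 1.54 (interval 1.49 to 1.59) and 1.57 (interval 1.54 to 1.60), and for both the level in Ctrl was well above that in Sham_D40.

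The remaining genes included Slfn2 and Ifi27l2a, with some of the largest ratios, and 6 of 7 were higher. Slfn2, a Schlafen family gene that keeps mouse T cells and monocytes quiescent, was at 49.9 CPM in Graft_D19, 198 in Graft_D40, 40.5 in Sham_D40 and 23.1 in Ctrl, a Graft_D40 over Sham_D40 ratio of 4.89 (interval 4.39 to 5.46). Ifi27l2a, which encodes a small membrane protein, was at 14.1 CPM in Graft_D19, 256 in Graft_D40, 54.8 in Sham_D40 and 32.5 in Ctrl. Graft_D40 stood alone for both genes, while Graft_D19 was the lowest library for Ifi27l2a. The level of Ifi27l2a also differed between kinds of vessel, and the part of their mix in these pooled levels was not tested. Xaf1, a promoter of cell death and the gene of this group with the highest mean level, was at 118 CPM in Graft_D19, 174 in Graft_D40, 103 in Sham_D40 and 102 in Ctrl. Lgals3bp, a secreted glycoprotein, was at 46.4 CPM in Graft_D19, 93.5 in Graft_D40, 39.5 in Sham_D40 and 29.1 in Ctrl, and Ifi44 at 96.0 CPM in Graft_D19, 132 in Graft_D40, 59.9 in Sham_D40 and 49.1 in Ctrl.

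**Figure D2:**
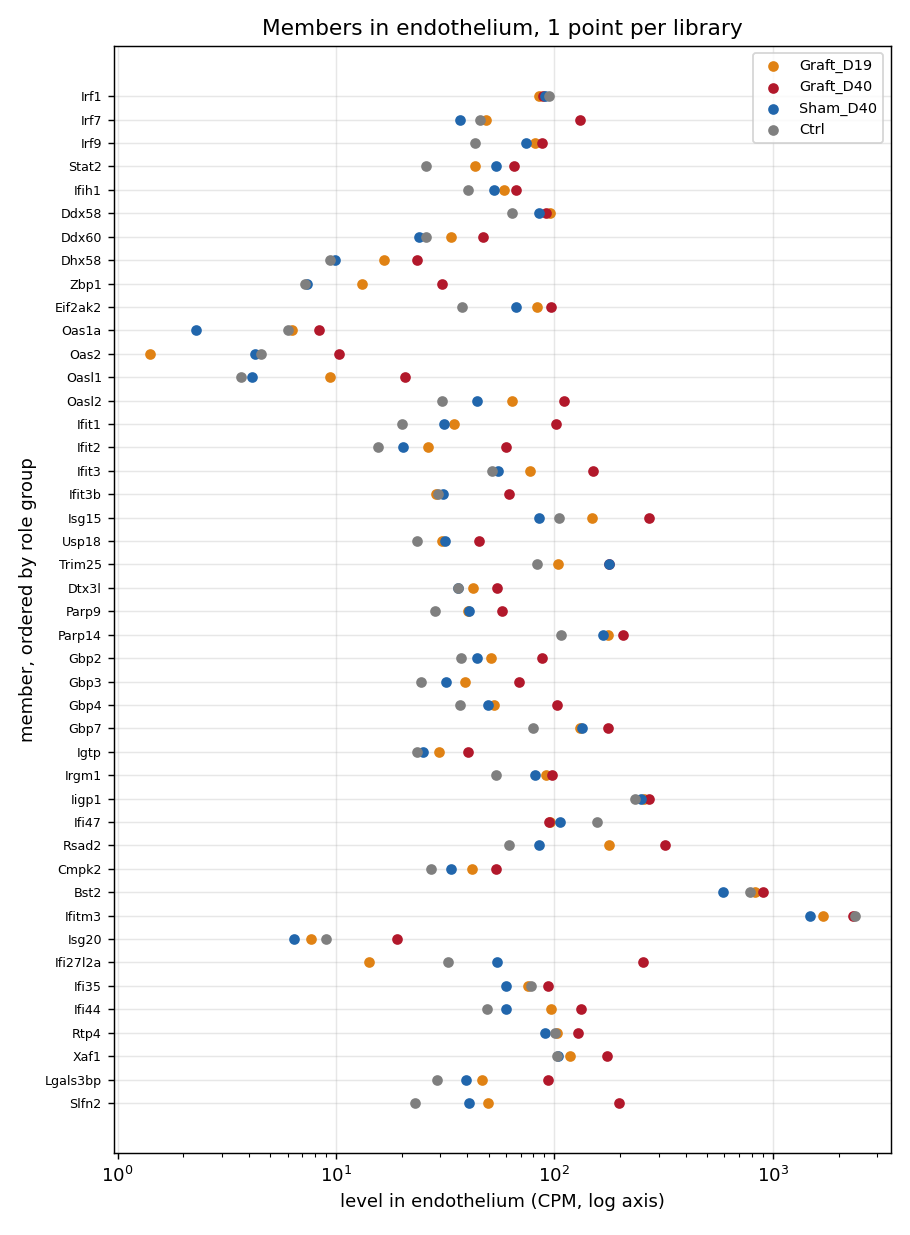
Level of each of the 44 members in endothelium (CPM, log axis), with 1 point per library and members ordered by role group from transcription factors at the top. The Graft_D40 point is the farthest right for 40 of 44 members, and the points of Irf1 and Iigp1 nearly coincide.

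The endothelial difference at day 40 was present in each kind of vessel, in unequal degree. Sinusoidal cells, 602 in Graft_D40 and 832 in Sham_D40, had 23 of 42 members higher and 0 lower, against 7.17% and 6.38% of all genes. The other endothelial cells, 447 and 268, had 29 of 44 higher, against 7.76% of all genes. Arterial cells, 218 and 146, had 14 of 44 higher, against 4.8%. The median log2 ratios were 0.69, 0.78 and 0.39 for the members and 0.04, 0.02 and 0.00 for all genes. Rsad2 in sinusoidal cells was at 146 CPM in Graft_D19, 299 in Graft_D40, 60.1 in Sham_D40 and 39.4 in Ctrl. Isg15 in arterial cells was at 228 CPM in Graft_D19, 359 in Graft_D40, 241 in Sham_D40 and 329.8 in Ctrl, and in other endothelial cells at 162 CPM in Graft_D19, 364 in Graft_D40, 139 in Sham_D40 and 269 in Ctrl. Whether the 3 classes differed from one another was not tested.

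The mix of clusters behind these classes differed between the libraries, so the members were also compared within single clusters. In sinusoidal cells, cluster 7 held 69.8% of the Graft_D40 cells and 9.74% of the Sham_D40 cells, and cluster 16 held 16.9% and 52.6%. Within cluster 7 the members made up 0.708% against 0.520% of UMIs in Graft_D40 and Sham_D40, and 17 of 43 members were higher against 4.26% of all genes. Within cluster 16 the shares were 0.599% against 0.431%, with 17 of 42 higher against 3.88%. The difference at day 40 was thus present in both clusters. Rsad2 differed between them, with 342 CPM in Graft_D40 against 302 in Sham_D40 in cluster 7, and 273 against 31.1 in cluster 16. Isg15 had 226 against 87.0 CPM in cluster 7 and 101 against 52.1 in cluster 16. In the other endothelial cells, cluster 13 had 22 of 44 members higher against 3.8% of all genes, and cluster 14 had 31 of 43 against 5.64%. Ifi27l2a had 1013 CPM in Graft_D40 against 255 in Sham_D40 in cluster 13, and 17.8 against 6.065 in sinusoidal cluster 16. In arterial cells, cluster 15 had 14 of 44 higher against 3.82%. The clusters were made from all variable genes, members included. Within clusters a member counted as measured by its mean over the compared pair of libraries only, so Graft_D40 alone can carry it.

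At day 19 many members were higher than in Ctrl in sinusoidal cells, and fewer in arterial and other endothelial cells. Over all endothelium 18 of 44 members were higher and 3 were lower, against 18.1% and 6.76% of all genes, with a median log2 ratio of 0.50 over members and 0.19 over all genes. Under median-of-ratios scaling the median of all genes was 0.06 and 13 members were higher. Sinusoidal cells had 25 of 42 members higher and 1 lower, against 20.2% and 6.69%, and the median log2 ratio was 0.68 against 0.21 for all genes. Within sinusoidal clusters 16 and 11, 16 of 40 and 18 of 40 members were higher, against 16.1% and 17.2% of all genes. The summed member shares there were nevertheless nearly equal, at 0.491% against 0.494% of UMIs in Graft_D19 and Ctrl in cluster 16 and 0.464% against 0.463% in cluster 11. In cluster 7, with 396 Graft_D19 and 34 Ctrl cells, 7 of 43 members were higher and 1 lower, against 4.31% and 4.72%, at shares of 0.608% against 0.574%. The other endothelial cells went the other way, with 1 of 44 higher and 12 lower, against 12.7% and 8.75%. Within their cluster 13, 1 of 43 members was higher and 9 lower, against 5.54% and 4.58% of all genes. Within their cluster 7, 2 of 40 were higher and 1 lower, against 3.79% and 4.90%. Arterial cells had 7 higher and 5 lower, against 6.47% and 6.45%. Without the 10 arterial cells of each library with the most member UMIs, 3 were higher and 7 lower, against 4.91% and 5.66%, and the median log2 ratio was -0.14 in place of 0.14. Within arterial cluster 15, with 50 Graft_D19 and 51 Ctrl cells, 1 of 44 was higher and 11 lower, against 4.025% and 4.44%. The member shares there were 0.558% against 0.804% of UMIs.

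The members that led at day 19 in endothelium overlapped in part with those of day 40. The Graft_D19 over Ctrl ratio was 2.86 (interval 2.56 to 3.20) for Rsad2, 2.56 (interval 1.61 to 4.24) for Oasl1 and 2.16 (interval 1.79 to 2.62) for Slfn2. Eif2ak2 had 83.3 CPM in Graft_D19, against 37.7 in Ctrl. Oasl2 had 63.8 CPM in Graft_D19, against 30.5 in Ctrl, and Irf9 had 81.7 CPM in Graft_D19, against 43.2 in Ctrl. All 3 were higher by the rule. Ifi44 had 96.0 CPM in Graft_D19, against 49.1 in Ctrl, and Zbp1 had 13.1 CPM in Graft_D19, against 7.20 in Ctrl. The 3 lower members were Oas2, Ifi47 at 95.1 CPM in Graft_D19, against 156 in Ctrl, and Ifi27l2a at 14.1 CPM in Graft_D19, against 32.5 in Ctrl. Isg15 and Irf7 had ratios of 1.41 (interval 1.29 to 1.55) and 1.07 (interval 0.923 to 1.24) and were not called. Stat2, Irf9 and Eif2ak2 were called in Graft_D19 over Ctrl and not in Graft_D40 over Sham_D40, and Sham_D40 held more of each than Ctrl.

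The difference between the libraries without a graft gives the scale for these counts. In endothelium 10 of 44 members were higher and 2 lower in Sham_D40 over Ctrl, against 19.6% and 7.94% of all genes, with a median log2 ratio of 0.26. Ctrl was the lowest library for 29 of 44 members, and for 53.24% of all genes. Between the grafted libraries, 19 of 44 members were higher and 0 lower in Graft_D40 over Graft_D19, against 5.81% and 4.85%. The comparisons share libraries and do not count as separate evidence. Markers of blood cells were present at low levels in endothelium: the 10 general haematopoietic markers summed to 364, 264, 264 and 467 CPM and the 7 erythroid markers to 129, 62.5, 331 and 385 CPM, in Graft_D19, Graft_D40, Sham_D40 and Ctrl in that order. Of the haematopoietic markers 1 was at 0 in Graft_D19, Sham_D40 and Ctrl and 0 in Graft_D40. Graft_D40 did not hold the highest sum of either list, and the part of these cells in the result was not tested. Other markers did move with the members. In endothelium the 12 fibroblast markers summed to 915, 2432, 1131 and 929.6 CPM, the 8 arterial markers to 386, 796, 474 and 303 CPM and the 8 sinusoidal markers to 4167, 2093, 5216 and 5943 CPM in the same order, so that at day 40 the graft held more of the first 2 lists and less of the third. In sinusoidal cells alone the fibroblast markers summed to 580.4, 1358, 378 and 314 CPM and the sinusoidal markers to 4814, 3511, 6654 and 6717 CPM. In arterial cells the fibroblast markers were near level between the day 40 libraries, at 3152, 4032, 4113 and 5118 CPM. The fibroblast list includes Cd34 and Ly6c1, which endothelial cells also express, and the part of these markers in the result was not tested.

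In pooled mesenchymal stroma the members did not shift together at day 40. There 4 of 39 were higher and 4 lower in Graft_D40 over Sham_D40, against 4.94% and 9.76% of all genes, with a median log2 ratio of -0.13 beside -0.11. The 4 higher members were Rsad2 at 25.6 CPM in Graft_D40, against 3.30 in Sham_D40, Ifi27l2a at 64.3 CPM in Graft_D40, against 13.9 in Sham_D40, and Ifit3 and its copy Ifit3b. The 4 lower ones were Iigp1 at 77.2 CPM in Graft_D40, against 179.9 in Sham_D40, Ifi47 at 15.4 CPM in Graft_D40, against 27.5 in Sham_D40, Ddx60 and Parp14. The pooled value mixes classes of very different level, as chondrocytes made up 1025 cells in Graft_D40, 422 in Sham_D40, 767 in Graft_D19 and 269 in Ctrl. Without chondrocytes, 16 of 42 members were higher and 1 lower at day 40, against 4.54% and 6.31% of all genes. At day 19, 0 of 39 members were higher and 16 lower in Graft_D19 over Ctrl, against 17.6% and 12.5%, and without chondrocytes 4 of 42 were higher and 6 lower, against 21.2% and 8.89%. Among the 16 lower members were Ifitm3 at 889.8 CPM in Graft_D19, against 3088 in Ctrl, Rtp4 at 34.1 CPM in Graft_D19, against 89.0 in Ctrl and Irf7 at 26.3 CPM in Graft_D19, against 62.8 in Ctrl.

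LepR cells, the Cxcl12-rich stroma that supports haematopoietic stem cells, numbered 2075, 1587, 2283 and 1965 in Graft_D19, Graft_D40, Sham_D40 and Ctrl. At day 40, 17 of 42 members were higher and 0 lower than in Sham_D40, against 6.74% and 4.58% of all genes, with a median log2 ratio of 0.40. Rsad2 was at 10.0 CPM in Graft_D19, 33.0 in Graft_D40, 5.29 in Sham_D40 and 9.47 in Ctrl, and Ifi27l2a at 14.9 CPM in Graft_D19, 69.8 in Graft_D40, 14.4 in Sham_D40 and 25.4 in Ctrl. Isg15 was at 225 CPM in Graft_D19, 318 in Graft_D40, 179 in Sham_D40 and 262 in Ctrl, so that Graft_D40 was the highest library but Ctrl lay above Sham_D40. Ifit3 was at 40.2 CPM in Graft_D19, 80.3 in Graft_D40, 31.0 in Sham_D40 and 44.3 in Ctrl and Irf7 at 62.0 CPM in Graft_D19, 106 in Graft_D40, 54.0 in Sham_D40 and 79.3 in Ctrl. Iigp1, at 253 CPM in Graft_D19, 228 in Graft_D40, 319 in Sham_D40 and 174 in Ctrl, was highest in Sham_D40. At day 19, 7 members were higher and 2 lower than in Ctrl, against 26.8% and 7.61%, a share of higher members below that of all genes. Cluster 21 held 56.8% of the Ctrl LepR cells, and cluster 2 held 38.3% of those of Graft_D19 and 2.19% of those of Ctrl.

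The day 40 difference in LepR cells was not seen within clusters 2, 4 and 9 of that class. Cluster 2 held 75.7% of LepR cells in Graft_D40 and 4.42% in Sham_D40. Within it the members made up 0.620% against 0.777% of UMIs in 1202 Graft_D40 and 101 Sham_D40 cells, and 2 of 42 members were higher and 10 lower, against 6.62% and 4.97% of all genes. There Isg15 had 333 CPM in Graft_D40 against 521 in Sham_D40, and Ifit1 had 141 against 344. The 2 higher members were Rsad2, at 28.5 against 15.7 CPM, and Ifi27l2a, at 75.6 against 28.2. In clusters 4 and 9, which together held more Sham_D40 LepR cells than other pairs of clusters, 3 of 41 and 2 of 39 members were higher, against 5.22% and 4.3% of all genes, and the member shares were 0.525% against 0.538% and 0.431% against 0.458%. In clusters 3, 5 and 8, 5 of 41, 6 of 37 and 4 of 39 members were higher, against 6.36%, 6.47% and 5.09%. Most Sham_D40 and Graft_D40 LepR cells thus lay in different clusters. In Graft_D19 over Ctrl, 0 of 42 members were higher and 18 lower within cluster 2, against 3.58% and 4.02% of all genes. The member shares there were 0.540% against 0.936% over 794 and 43 cells. In cluster 4, 7 of 41 were higher and 0 lower, against 7.15% and 4.78%. In clusters 3, 5, 8 and 9, 0 of 40, 5 of 40, 6 of 40 and 4 of 39 were higher. All genes gave 3.72%, 7.13%, 11.2% and 6.3%. In the same order 5, 4, 5 and 0 were lower, against 4.5%, 9.79%, 7.69% and 5.18%. Myeloid markers in LepR cells summed to 896, 10.4, 386 and 36.5 CPM and erythroid markers to 115, 24.4, 253 and 869 CPM, in Graft_D19, Graft_D40, Sham_D40 and Ctrl in that order. The 12 fibroblast markers summed to 1262, 1858, 954 and 846 CPM and the 12 LepR stroma markers to 46680.0, 32220.0, 59660.0 and 55000.0 CPM in the same order, so that Graft_D40 held the most of the first list and the least of the second. The part of any of these markers in the result was not tested.

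In fibroblasts nearly every measured member was higher at day 40. These cells, gated on markers such as Dpt, Clec3b and Col3a1, numbered 131, 216, 258 and 58 in Graft_D19, Graft_D40, Sham_D40 and Ctrl. In Graft_D40 over Sham_D40, 38 of 39 members were higher and 0 lower, against 6.42% and 5% of all genes, with a median log2 ratio of 1.34 beside 0.00. Without the 10 cells of each library with the most member UMIs, 31 of 32 were higher, against 5.94% of all genes. A member can count as measured through its level in Graft_D40 alone, and 17 members were at 0 in Ctrl fibroblasts. Ifi27l2a was at 129.6 CPM in Graft_D19, 553 in Graft_D40, 62.7 in Sham_D40 and 118 in Ctrl, and Bst2 at 75.4 CPM in Graft_D19, 411 in Graft_D40, 63.6 in Sham_D40 and 60.9 in Ctrl. Irf7 was at 6.34 CPM in Graft_D19, 66.4 in Graft_D40, 5.03 in Sham_D40 and 3.81 in Ctrl, a Graft_D40 over Sham_D40 ratio of 13.2 (interval 8.06 to 23.1). Isg15 was at 28.2 CPM in Graft_D19, 216 in Graft_D40, 25.4 in Sham_D40 and 0 in Ctrl, where 0 UMIs in Ctrl allow up to 11.4 CPM. Graft_D40 stood apart from all 3 other libraries for these genes. Isg20, an RNA exonuclease, was the one measured member not called, at 21.9 CPM in Graft_D40, against 16.6 in Sham_D40. Within fibroblast cluster 1, 38 of 41 members were higher against 5.78% of all genes, and within cluster 25, 15 of 28 against 4%. Haematopoietic markers in this class summed to 23.9, 7.11, 17.8 and 3.81 CPM and myeloid markers to 27.5, 11.4, 220.2 and 19.03 CPM in Graft_D19, Graft_D40, Sham_D40 and Ctrl in that order, and all 4 lymphoid markers were at 0 in the 4 libraries. The part of such cells in the result was not tested. At day 19, 2 members were higher than in Ctrl, against 7.43% of all genes, over few Ctrl cells.

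In osteolineage cells the day 40 difference rested largely on a few cells. With all 309 Graft_D40 and 207 Sham_D40 cells, 25 of 37 members were higher and 0 lower, against 3.19% and 9.56% of all genes. As in fibroblasts, a member can count as measured through Graft_D40 alone. The 10 cells with the most member UMIs held 43.9% of all member UMIs in Graft_D40 and 19.6% in Sham_D40. Without them 9 of 30 members were higher, against 2.85% of all genes, and the median log2 ratio was 0.38 in place of 1.02. Rsad2 had 94.0 CPM in Graft_D40, against 0.262 in Sham_D40, where the Sham_D40 level is 1 UMI. Without those cells it had 2.34 against 0.279. Isg15 had 196 CPM in Graft_D40, against 27.3 in Sham_D40, and without them 58.9 against 16.5. Ifi27l2a hardly moved, at 34.6 CPM in Graft_D40, against 1.05 in Sham_D40, and without them at 32.2 against 1.12. Within osteolineage cluster 10, 23 of 31 members were higher against 3.09% of all genes, and within cluster 8, 4 of 37 against 4.51%. No cells were left out of these cluster counts. The median osteolineage cell held a member share of 0.110% in Graft_D40 and 0.114% in Sham_D40. At day 19, 0 members were higher and 17 of 37 lower than in Ctrl, against 12.5% and 12% of all genes. Chondrocytes had 14 members at 5 CPM or more, of which 1 was higher and 3 lower in Graft_D40 over Sham_D40, against 1.12% and 5.64%. Summed UMIs weigh deep cells most. The mean member share per chondrocyte was 0.0383% in Graft_D19, 0.0709% in Graft_D40, 0.0383% in Sham_D40 and 0.0670% in Ctrl. The median cell held 0.0242%, 0.0273%, 0.0251% and 0.0270% in the same order. In chondrocyte cluster 23, members made up 0.3725% of UMIs in 116 Graft_D40 cells, against 0.0754% in Graft_D19 and 0.0925% in Ctrl.

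Mural cells, the pericytes and smooth muscle of vessels, numbered 44, 121, 41 and 54 in Graft_D19, Graft_D40, Sham_D40 and Ctrl. The members made up 0.349%, 0.356%, 0.282% and 0.314% of their UMIs, and 0.189%, 0.291%, 0.200% and 0.181% without the 10 cells of each library with the most member UMIs, in the same order. In Graft_D40 over Sham_D40, 6 of 36 members were higher and 0 lower, against 3.53% and 5.83% of all genes, with a median log2 ratio of 0.59 beside -0.06. Among them were Irf7, at 29.6 CPM in Graft_D19, 66.6 in Graft_D40, 20.7 in Sham_D40 and 18.4 in Ctrl, and Isg15, at 229 CPM in Graft_D19, 138 in Graft_D40, 57.0 in Sham_D40 and 85.8 in Ctrl, so that Graft_D19 was the highest library for Isg15.

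**Figure D3:**
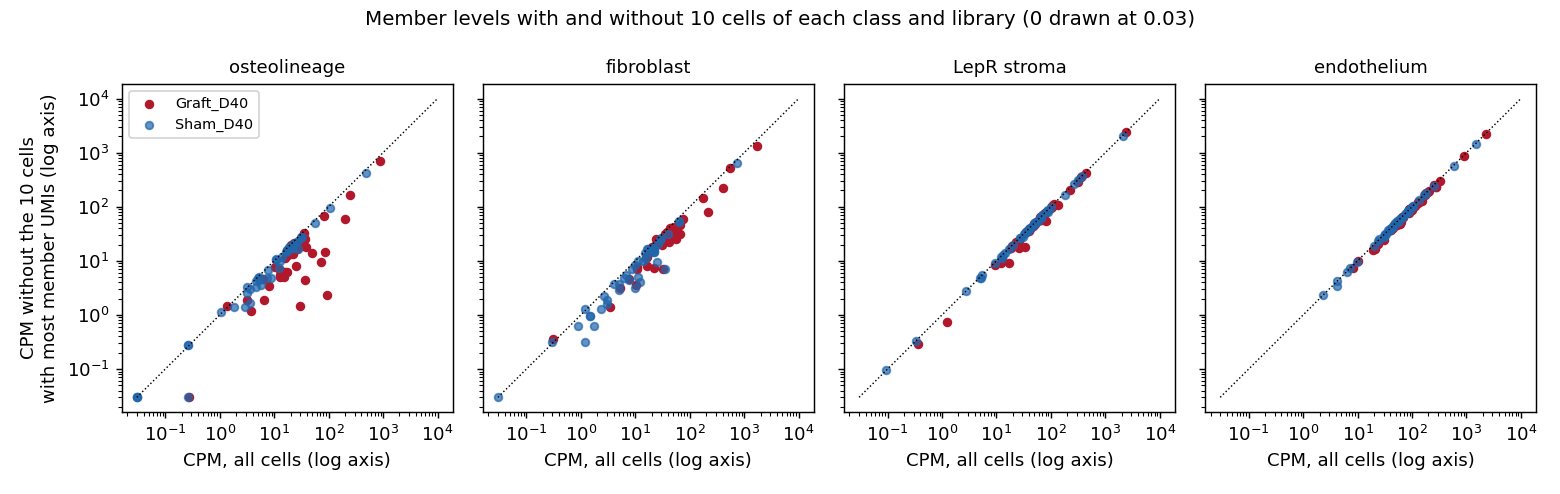
Level of each member in 4 classes of Graft_D40 (red) and Sham_D40 (blue), with all cells on the x axis and without the 10 cells of most member UMIs on the y axis (CPM, both axes log), where points on the dotted line are equal. In osteolineage cells the Graft_D40 points fall farthest below the line, as for Rsad2 with 94.0 CPM over all cells and 2.34 without them, and in endothelium they stay near it.

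**Figure D4:**
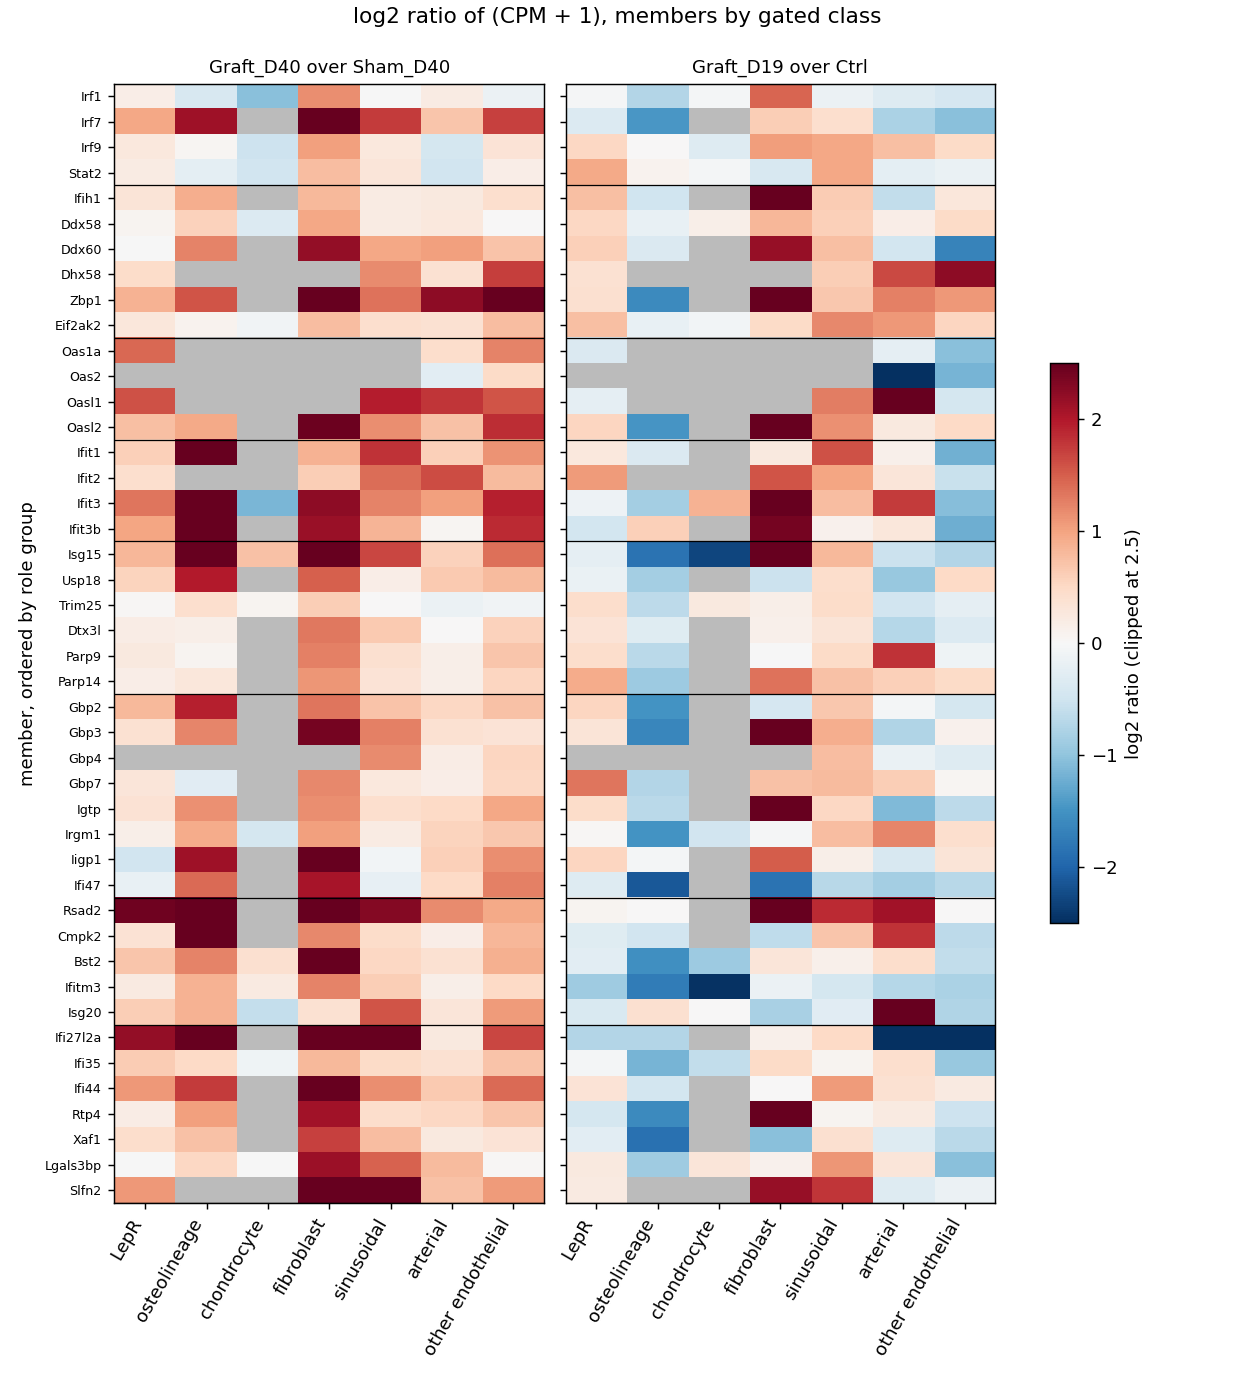
Log2 ratio of CPM plus 1 for each member (down the page, by role group) in 7 gated classes (across), for Graft_D40 over Sham_D40 on the left and Graft_D19 over Ctrl on the right, clipped at 2.5 either way, with members under a mean of 5 CPM in grey. Red, the colour of a higher level in the graft, fills most of the left panel outside chondrocytes, and at day 19 it fills the sinusoidal column, where the median was 0.68, but not the osteolineage column, where it was -0.74.

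Member UMIs were spread unevenly over the cells of a class. To compare cells of unequal depth, each cell was thinned to 1000 UMIs, and cells with 20 or more member UMIs of the 1000 were counted. The exact binomial (Clopper-Pearson) intervals cover counting error over the cells of 1 library and not differences between animals or libraries. In endothelium there were 13 of 1314 (0.989%, interval 0.528 to 1.69) in Graft_D19, 58 of 1267 (4.58%, interval 3.49 to 5.88) in Graft_D40, 11 of 1246 (0.883%, interval 0.442 to 1.57) in Sham_D40 and 24 of 1447 (1.66%, interval 1.07 to 2.46) in Ctrl. Without thinning, cells in which members took 2% or more of UMIs were 10, 45, 4 and 22 in the same order. In LepR cells the thinned counts were 8 of 2075 (0.386%, interval 0.167 to 0.758) in Graft_D19, 19 of 1587 (1.20%, interval 0.722 to 1.86) in Graft_D40, 4 of 2283 (0.175%, interval 0.0478 to 0.448) in Sham_D40 and 14 of 1965 (0.712%, interval 0.390 to 1.19) in Ctrl. Such cells were thus more frequent in Graft_D40 than in Sham_D40 in both classes, while Ctrl lay between. Other endothelial cells gave 7.83% (interval 5.51 to 10.7) in Graft_D40, 2.61% in Sham_D40 and 6.21% (interval 3.72 to 9.63) in Ctrl. Without thinning Ctrl was higher there, at 6.90% against 5.59% in Graft_D40. Thinned shares in Graft_D40 and Ctrl were 6.42% and 4.88% in arterial cells, and 1.495% and 0.186% in sinusoidal cells. The mix of these kinds of vessel differed between the libraries, and its part in the pooled shares was not tested. In osteolineage cells and fibroblasts, cells with 20 or more were seen in Graft_D40 alone. These were 5 of 309 (1.62%, interval 0.527 to 3.74) and 5 of 216 (2.31%, interval 0.756 to 5.32). In Sham_D40, 0 of 207 and 0 of 258 have exact upper limits of 1.77% and 1.42%. Taking 3 cells as the limit for a count of 0 gives 1.45% and 1.16%. The exact limits were 1.18% and 2.78% in Graft_D19 and 2.13% and 6.16% in Ctrl. Of the exact limits, only those of Graft_D19 osteolineage cells and Sham_D40 fibroblasts lay below the Graft_D40 share, each within the interval of that share. Among chondrocytes there were 0 of 1025 in Graft_D40, with an exact upper limit of 0.359%.

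Among mesenchymal and endothelial cells, the one with the most member UMIs was an osteolineage cell of Graft_D40 with 1657 member UMIs of 44180, 220 of them Rsad2 and 221 Isg15. It held 10117 UMIs of osteolineage markers and 7 of haematopoietic markers. In Graft_D19 the highest was a sinusoidal cell with 1234 member UMIs of 28961.

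Isg15 was detected in a larger share of sinusoidal cells in Graft_D40 than in the other libraries. In sinusoidal cells thinned to 1000 UMIs it was 10.0% in Graft_D19, 15.1% in Graft_D40, 5.17% in Sham_D40 and 6.51% in Ctrl, and without thinning 38.1%, 48.5%, 25.7% and 21.5%. Chondrocytes, the class of lowest level, had Isg15 in 0.261%, 1.76%, 0.237% and 0.743% of thinned cells in the same order, at median depths of 24776, 24596, 21523 and 1551 UMIs before thinning. The sinusoidal shares lay above this level in each library, at median depths of 9092, 8582, 8849 and 4788 UMIs. After thinning Rsad2 was found in 21.1% of sinusoidal cells and 1.58% of LepR cells in Graft_D40, against 4.57% and 0.657% in Sham_D40. In Graft_D40 the 10 LepR cells with the most Rsad2 held 64.1% of its UMIs, against 30.2% in sinusoidal cells.

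**Figure D5:**
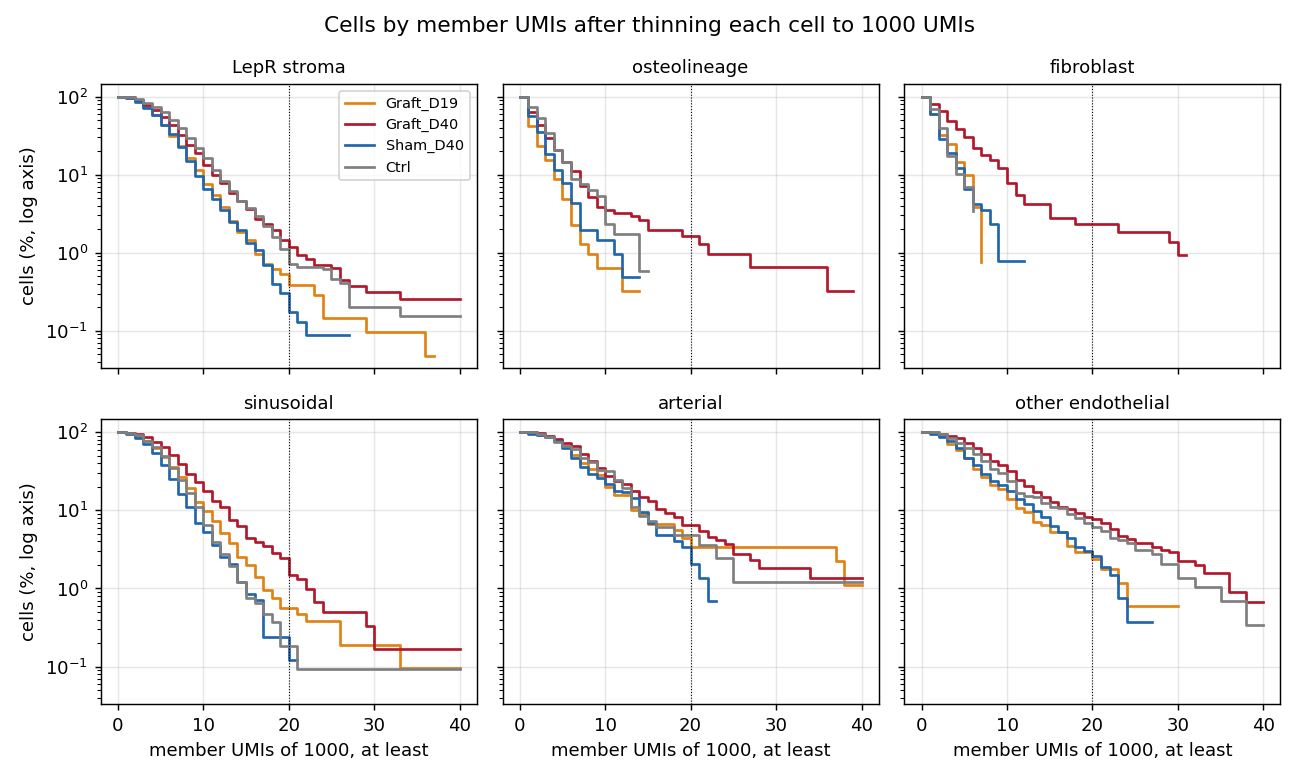
Percentage of cells (y axis, log) with at least a given number of member UMIs (x axis, up to 40) after each cell was thinned to 1000 UMIs, with 1 panel per class, 1 line per library and a dotted line at 20 UMIs. The Graft_D40 line ends farthest right in osteolineage cells and fibroblasts and lies above the Sham_D40 line at 20 UMIs in LepR and other endothelial cells.

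The members followed one another from cell to cell to unequal degrees. Over the members with counts in LepR cells, the correlation with the sum of the other members had a median of 0.233 (range -0.017 to 0.533) in Graft_D19, 0.338 (range 0.0187 to 0.596) in Graft_D40, 0.234 (range -0.017 to 0.563) in Sham_D40 and 0.148 (range 0.0165 to 0.435) in Ctrl. In LepR cells the correlation of Isg15 with the sum of the other members was 0.533 in Graft_D19, 0.550 in Graft_D40, 0.563 in Sham_D40 and 0.435 in Ctrl, over 2075, 1587, 2283 and 1965 cells. For Irf1 it was 0.0737, 0.132, 0.0563 and 0.0467 in the same order. Irf1 thus followed the other members less closely than Isg15 did in each library. Cells of a library share its depth and their counts are sparse, so these values are a description. Outside the list, the genes whose level followed the member share most closely in LepR cells were Ly6e, with a mean correlation of 0.320 over the 4 libraries, Phf11d with 0.314, Gm4841 with 0.287 and Ifi211 with 0.287. In sinusoidal cells they were Ifi206 with 0.333, Ly6a with 0.319, Ifi213 with 0.311 and Trim30a with 0.305. Ly6a encodes the Sca1 used in the endothelial sort.

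Genes that carry interferon signals upstream of the members were examined as lists. The 12 interferon genes examined, among them Ifnb1, Ifng and Ifnl2, had 1 UMI in all kept cells of Graft_D19, 0 in Graft_D40, 2 in Sham_D40 and 0 in Ctrl, and 0 of 4864 cells in Graft_D40 allows a share of cells with a UMI of up to 0.0617%. This limits detection at these depths and not the share of cells that express such a gene. Cells were sorted as Cd45-negative and counted on mouse genes, so these counts do not cover most marrow leukocytes or the human graft. In endothelium, 0 of 8 receptors and kinases were higher and 2 lower in Graft_D40 over Sham_D40, where all genes gave 6.57% and 6.8%, so that for lists this short 0 higher lies near the share of all genes. One of the lower genes was Jak1, the kinase shared by the receptors, at 636 CPM in Graft_D19, 367 in Graft_D40, 864 in Sham_D40 and 783 in Ctrl. Of the signal transducers and regulators 0 of 9 were higher and 3 lower. Irf8, a factor of the interferon response best known from myeloid cells, was at 71.8 CPM in Graft_D19, 35.9 in Graft_D40, 106 in Sham_D40 and 83.7 in Ctrl. Of the genes of upstream sensing 0 of 8 were higher and 1, the adaptor Mavs, was lower. In LepR cells Ifngr2, a chain of the interferon gamma receptor, was the 1 of 8 receptors and kinases called higher, at 165 CPM in Graft_D19, 235 in Graft_D40, 119 in Sham_D40 and 109.7 in Ctrl.

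Chemokines and antigen presentation, further outputs of interferon, differed by class. Cxcl10, which attracts T cells, was at 28.1 CPM in Graft_D19, 48.7 in Graft_D40, 11.8 in Sham_D40 and 13.7 in Ctrl in endothelium and at 17.2 CPM in Graft_D19, 93.5 in Graft_D40, 1.05 in Sham_D40 and 10.5 in Ctrl in LepR cells. Cxcl9 was at 151 CPM in Graft_D19, 79.0 in Graft_D40, 141 in Sham_D40 and 204 in Ctrl in endothelium, where Graft_D40 was the lowest library, and at 31.8 CPM in Graft_D19, 85.0 in Graft_D40, 12.4 in Sham_D40 and 40.9 in Ctrl in LepR cells. Of the antigen presentation genes, 3 of 10 were higher and 0 lower in Graft_D40 over Sham_D40 in endothelium, 8 of 9 and 0 in fibroblasts, and 0 of 11 and 1 in LepR cells. All genes gave 6.57% and 6.8% in endothelium, 6.42% and 5% in fibroblasts and 6.74% and 4.58% in LepR cells. The peptide transporter Tap1 in endothelium was at 37.4 CPM in Graft_D19, 54.3 in Graft_D40, 34.6 in Sham_D40 and 20.1 in Ctrl, and the class I heavy chain H2-D1, whose reads may be shared with close copies, at 1220.5 CPM in Graft_D19, 1990.2 in Graft_D40, 1255 in Sham_D40 and 1315 in Ctrl.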

How the data were processed

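Cells from femur marrow were sorted and sequenced with the 10x 3-prime chemistry, per the labels' protocols. The files deposited by the authors hold UMI counts, not normalized, for each gene in each barcode. Per the file headers the matrices came from Cell Ranger 5.0.0, and the build mm10 and a Cell Ranger of version 3.1.0 are named in the submitters' processing notes. The 2 antibody features present in Sham_D40 and in Graft_D40 were left out, as no label explains them. No columns of other samples were present.

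Barcodes were kept at a minimum of 500 genes and 1000 UMIs and a maximum of 10% mitochondrial UMIs, and Scrublet, run in scanpy 1.11.5, removed 91, 56, 44 and 80 cells as doublets in Graft_D19, Graft_D40, Sham_D40 and Ctrl. Cells were assigned to classes by mean scores over marker lists. Clusters come from the Leiden method (leidenalg 0.10.2). UMIs were summed per class and library and divided by the total to give CPM. Total gene UMIs were 63214301, 72204599, 51744386 and 18533482 in the same order. Ratios carry exact conditional binomial intervals at 95%, which cover counting error only, and log2 ratios use a pseudocount of 1 CPM. Genes whose mean over the 4 libraries reached 5 CPM count as measured, so a gene can pass through 1 library in which it is high. Within clusters the mean was taken over the compared pair of libraries only. The calculation was tested on simulated class sums with known fold changes and counting error only. These lacked the uneven spread of member UMIs over cells. No p-values were computed, since each group is 1 library. The members, lists and comparisons were chosen with earlier results of these data known. Members named with values are those of highest mean level per role group and the called ones of largest ratio, up to 8 per comparison in endothelium and mesenchymal stroma, and those named beyond this rule or within the finer classes were chosen after their values were seen. The counts without 10 cells in the finer classes, without chondrocytes and within clusters were added after seeing the data. The scripts ran under Python 3.11.15 with pandas 2.3.3, scipy 1.17.1 and numpy 2.4.6.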

Additional observations from a re-analysis of the deposited data

Results flagged for a closer look

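Several members went one way in mesenchymal stroma and the other way in endothelium under the same contrast, and the difference between the compartments was not tested. In Graft_D40 over Sham_D40 the log2 ratio of Ddx60 was -0.61 in mesenchymal stroma and 0.94 in endothelium. In Graft_D19 over Ctrl it was -0.93 in mesenchymal stroma and 0.61 in endothelium for Cmpk2, -0.61 and 0.66 for Gbp3, -0.64 and 0.76 for Ifit1, and -0.77 and 0.75 for Irgm1. Chondrocytes, the class of lowest member level, made up more of the stroma in the grafted libraries, their part in the result was not tested, and in LepR cells alone the log2 ratio of Ddx60 was -0.01 and that of Ifit1 at day 19 was 0.27.

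Haematopoietic cells that passed the sort entered no comparison, and their summed member share of UMIs was higher in the grafted libraries than in those without a graft. It was 0.182% over 35 cells in Graft_D19 and 1.27% over 24 cells in Graft_D40 (interval 1.22 to 1.33%), against 0.127% over 25 cells in Sham_D40 and 0.0542% over 10 cells in Ctrl. The median cell held 0.111% in Graft_D19 and 0.977% in Graft_D40, against 0.172% in Sham_D40 and 0.0553% in Ctrl, so that by this measure Graft_D19 lay below Sham_D40. In Graft_D40, 1 cell held 15.97% of the member UMIs. Median depth was 16537, 3874, 11968 and 16026 UMIs in Graft_D19, Graft_D40, Sham_D40 and Ctrl, so the cells of Graft_D40 were the shallowest, and the part of their makeup in the result was not tested.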

How the results depend on the processing

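Of 96 counts of members recomputed under 12 planned settings, 74 stayed within 1.5 times of the count reported and 22 moved. The cause was not tested unless stated. The share of all genes called changed with the setting and is given in brackets. The 28 members higher in Graft_D40 over Sham_D40 in endothelium stayed within 1.5 times under all 12. They lay between 19, at 2-fold (2.45% of all genes), and 34, with Ctrl as comparator (22.9%). The 3 lower at day 19 stayed within 1.5 times too. With the other library without a graft as comparator, 1 member was lower in Graft_D40 endothelium in place of 0 (10.4%). The 18 members higher in Graft_D19 over Ctrl in endothelium became 5 at 2-fold (4.66%) and 7 with Sham_D40 as comparator (2.81%). They became 9 with cells weighted equally (15.2%) and 8 after thinning (13%). In mesenchymal stroma the 4 higher at day 40 became 2 at a minimum of 20 CPM (4.75%) and at 2-fold (1.37%). They were also 2 with Ctrl as comparator (18.8%) and without the 10 cells of most member UMIs (4.91%). They became 7 with equal weights (5.44%) and 16 without chondrocytes (4.54%). The 4 lower at day 40 became 2 under median-of-ratios scaling (8.1%), a pseudocount of 5 CPM (7.16%) and the stricter cell filter (9.58%). They became 1 at 2-fold (3.52%), with equal weights (5.77%), after thinning (6.87%) and without chondrocytes (6.31%), and 9 with Ctrl as comparator (15.6%). At day 19 the 0 higher became 2 with equal weights (17.8%) and 4 after thinning (17.9%). The count was 1 under the stricter filter (19.5%) and 4 without chondrocytes (21.2%). The 16 lower became 10 at 2-fold (4.35%), 8 with Sham_D40 as comparator (6.59%) and 6 without chondrocytes (8.89%). Fewer genes can pass at 2-fold or at 20 CPM by construction. The member share per library moved beyond its counting interval in 23 of 24 cases. No paired analysis was possible because each group is a single library, and no replicate could be left out. The median log2 ratio of the members in mesenchymal stroma at day 40, -0.13, was 0.10 with equal weights, 0.12 after thinning and 0.36 without chondrocytes, and at day 19, -0.47, it was 0.0048 without chondrocytes. In endothelium the medians kept their sign under the settings tried. Ctrl, with a median of 3553 UMIs per cell, limits what can be seen of scarce members such as Oas2 and Oasl1, and classes of few cells, such as the 58 fibroblasts of Ctrl, limit day 19 in that class.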

Other observations

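Chromosome 11 holds 10 of the 44, chromosome 5 holds 5, and chromosomes 3, 16 and 19 hold 4 each, on GRCm38. Some genes outside the list followed the member share from cell to cell. In sinusoidal cells Ifi203, Ifi206 and Ifi213, members of the interferon-inducible p200 family, had mean correlations of 0.277, 0.333 and 0.311 over the 4 libraries, and in LepR cells Ifi203, Ifi204 and Ifi211 had 0.247, 0.263 and 0.287. Trim30a, Phf11d and Ly6e were among the 10 closest followers in both classes.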
